A study of Mus with 6 samples.

Results

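The genes described here are the 9 that are read from the light-strand promoter of mouse mitochondrial DNA, namely the mRNA gene mt-Nd6 and the tRNA genes mt-Tq, mt-Ta, mt-Tn, mt-Tc, mt-Ty, mt-Ts1, mt-Te and mt-Tp. The choice followed their place on the mitochondrial genome and was made with earlier results of these data known, and all 9 were among the 35304 Ensembl gene IDs counted. The study sequenced RNA of 4T1, a mouse mammary carcinoma line, in 3 untreated samples and in 3 samples that were exposed for 24 h to 10 µg/mL of isopimaric acid (IPA), a resin acid of conifers. The labels give no time in culture for the untreated samples and do not state whether replicates were separate cultures. The p-values then measure no more than the spread between these libraries, part or all of which may be technical. The series title links IPA to calcium and oxidative phosphorylation, and mt-Nd6 is an oxidative phosphorylation gene.

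Mitochondrial DNA is a small circle whose strands are each copied into long RNAs that are then cut, mostly at the tRNAs, into single mRNAs, rRNAs and tRNAs. The heavy-strand RNA gives the rRNAs, nearly all mRNAs and most tRNAs, while the light-strand RNA gives mt-Nd6, which encodes a membrane subunit of respiratory complex I, and a minority of the tRNAs. The light-strand RNA runs opposite to the heavy-strand genes, and most of its length is antisense RNA that is normally degraded. Each mitochondrial tRNA named here carries 1 amino acid to the mitochondrial ribosome, which makes only the proteins encoded in this genome.

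On the mitochondrial genome of the GRCm38 build, as RefSeq gives it, mt-Nd6 (ENSMUSG00000064368) is an intronless gene at MT bases 13552 to 14070, a length of 519. It overlaps the end of the heavy-strand gene mt-Nd5 by 14 bases. mt-Te (ENSMUSG00000064369), the glutamate tRNA gene, follows it directly at 14071 to 14139, and mt-Cytb, a heavy-strand mRNA gene, starts after a gap of 5 bases. A block of 4 light-strand tRNA genes lies between the heavy-strand genes mt-Tw and mt-Co1. These are mt-Ta (ENSMUSG00000064347, alanine) at 5018 to 5086, mt-Tn (ENSMUSG00000064348, asparagine) at 5089 to 5159, mt-Tc (ENSMUSG00000064349, cysteine) at 5192 to 5257 and mt-Ty (ENSMUSG00000064350, tyrosine) at 5260 to 5326. The 32 bases between mt-Tn and mt-Tc are where the origin of light-strand replication is known to lie. mt-Ts1 (ENSMUSG00000064352, a serine tRNA) at 6870 to 6938 overlaps the end of mt-Co1 by 3 bases. mt-Tq (ENSMUSG00000064343, glutamine) at 3772 to 3842 overlaps mt-Ti by 3 bases, and mt-Tp (ENSMUSG00000064372, proline), at 15356 to 15422, is the last gene before the control region.

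Library totals ran from 3410411 counts in IPA replicate 1 to 58924711 in untreated replicate 2. Untreated replicate 2 stood apart from the rest, with correlations in log2 CPM (counts scaled to a common library total) of 0.779 to 0.811 across genes, against 0.922 to 0.987 among the other 5 libraries. Comparisons are therefore given with it and without it, and with it left out the smallest two-sided exact permutation p that 2 libraries against 3 can give is 0.2. Among the other 5, the correlations of IPA replicate 1 were 0.922 to 0.935, and the rest ran from 0.968 to 0.987. Whether counting used the strand is not given in the sources used here, so reads of a light-strand gene and reads of heavy-strand RNA across the same bases cannot be told apart. In bulk RNA, fewer cells that express a gene and less RNA per cell cannot be told apart either. The library type, poly-A selected or rRNA depleted, is not given in the sources used here. Reads over a tRNA gene may come from the mature tRNA or from longer RNA, and these cannot be told apart. The mitochondrial genes together held 7.12 ± 1.18% of counts in untreated samples and 2.21 ± 0.531% with IPA (SD, n = 3 each). The groups did not overlap, and the two-sided exact permutation p was 0.1, the smallest that 3 against 3 can give, and 0.2 without untreated replicate 2.

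Over all 6 libraries edgeR's quasi-likelihood test called 0 of the 9 light-strand genes and 0 of all 24935 IDs tested. DESeq2 called mt-Ta and mt-Ts1 lower with IPA, where it called 63 of 18483 IDs lower. With untreated replicate 2 left out, 7 of the 9 fell by edgeR's test, mt-Te and mt-Nd6 among them. Of all 25592 IDs tested in that fit 2.20% fell. mt-Nd6 stood at 308, 5509 and 405 CPM in untreated replicates 1, 2 and 3, and at 120, 103 and 82.6 CPM in IPA replicates 1, 2 and 3. All 3 IPA libraries lay below all 3 untreated ones, and untreated replicate 2 lay far above the other 5. Over 6 libraries, edgeR gave mt-Nd6 a log2 fold change (IPA over untreated) of -4.84 ± 1.33 (SE; adjusted p = 0.657). Without untreated replicate 2 it fell by 1.93 ± 0.15 on the log2 scale (edgeR adjusted p = 1.85e-07). The mean of untreated replicates 1 and 3 was 356 CPM, 3.50 times the IPA mean of 102 CPM.

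mt-Te, the neighbour of mt-Nd6, had the largest difference of the 9 genes in both fits. Its level was 40.6, 888 and 54.1 CPM in the untreated replicates and 11.1, 9.06 and 6.75 CPM in the IPA replicates. As for mt-Nd6, the groups did not overlap and untreated replicate 2 was the highest by far. The log2 fold change was -5.70 ± 1.46 over 6 libraries (edgeR adjusted p = 0.657). Without untreated replicate 2, mt-Te fell by 2.58 ± 0.21 on the log2 scale (edgeR adjusted p = 1.85e-07). The untreated mean of replicates 1 and 3 was then 5.27 times the IPA mean.

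**Figure D1:**
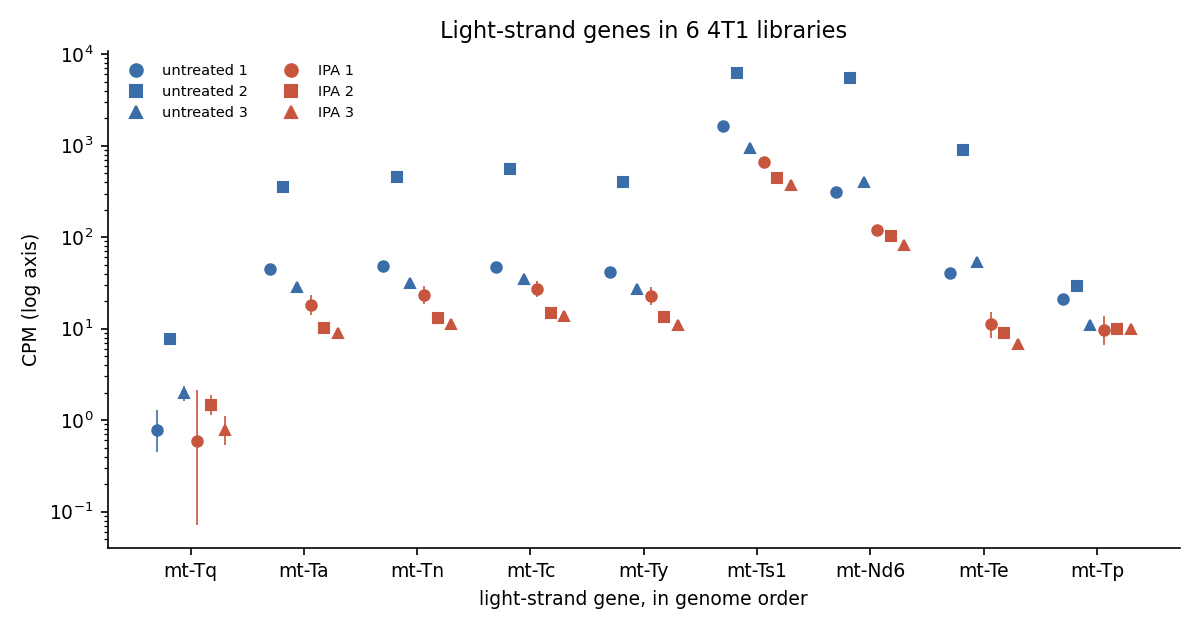
CPM on a log axis for the 9 light-strand genes in genome order, 1 point per library (untreated in blue, IPA in red, the marker giving the replicate), with bars for the exact 95% Poisson interval of the count, which covers counting error only. Untreated replicate 2 is the highest library for each gene, and for every gene but mt-Tq the IPA libraries lie below all untreated ones.

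The 4 genes of the tRNA block were close to each other in every library. mt-Ta stood at 45.4, 354 and 28.4 CPM in untreated replicates 1, 2 and 3 and at 18.2, 10.0 and 8.94 CPM in IPA replicates 1, 2 and 3. mt-Tn was at 47.8, 459 and 31.7 CPM and, with IPA, at 23.5, 12.96 and 11.2 CPM. For both, the lowest untreated library was replicate 3 and the highest IPA library was replicate 1, with no overlap. mt-Tc was at 47.5, 558 and 35.1 CPM and, with IPA, at 27.3, 14.8 and 13.8 CPM. mt-Ty was at 41.9, 396 and 26.9 CPM and, with IPA, at 22.9, 13.4 and 10.9 CPM. The gap between untreated replicate 3 and IPA replicate 1 was narrower for this pair of genes. For mt-Ty their exact Poisson intervals overlapped, at 25.6 to 28.4 CPM in untreated replicate 3 and 18.1 to 28.5 CPM in IPA replicate 1. In that IPA library the counts were 62 for mt-Ta, 80 for mt-Tn, 93 for mt-Tc and 78 for mt-Ty. Without untreated replicate 2, mt-Ta fell by 1.81 ± 0.27 on the log2 scale (edgeR adjusted p = 0.002), mt-Tn by 1.54 ± 0.26 (0.00544), mt-Tc by 1.36 ± 0.24 (0.00573) and mt-Ty by 1.34 ± 0.26 (0.0125). Over 6 libraries their log2 fold changes lay near each other, at -4.02, -4.00, -4.03 and -3.80, each with an edgeR adjusted p of 0.657.

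mt-Ts1 held far more reads than the other light-strand tRNA genes. Its level was 1634, 6151 and 952 CPM in untreated samples and 658, 440 and 368 CPM with IPA. The groups did not overlap, and untreated replicate 2 was again the highest. The log2 fold change was -2.99 ± 0.84 over 6 libraries (edgeR adjusted p = 0.657), and without untreated replicate 2 mt-Ts1 fell by 1.52 ± 0.28 (edgeR adjusted p = 0.0279).

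mt-Tp and mt-Tq did not pass the test in either fit. mt-Tp stood at 21.0, 29.6 and 10.9 CPM in the untreated replicates and at 9.68, 9.93 and 9.80 CPM with IPA. The IPA libraries were nearly equal and lay just under untreated replicate 3. The exact Poisson interval of untreated replicate 3, 10.0 to 11.8 CPM, overlapped that of each IPA library. The log2 fold change of mt-Tp was -1.38 ± 0.47 over 6 libraries (edgeR adjusted p = 0.657). Without untreated replicate 2 it was -0.79 ± 0.25 (edgeR adjusted p = 0.0889). mt-Tq had the fewest reads of the 9, with 16, 454 and 104 counts in untreated replicates 1, 2 and 3 and 2, 64 and 32 counts in IPA replicates 1, 2 and 3. In CPM this was 0.790, 7.70 and 1.97 in untreated samples and 0.586, 1.47 and 0.780 with IPA, so the groups overlapped. The exact Poisson interval of the IPA replicate 1 value ran from 0.0710 to 2.12 CPM. The log2 fold change of mt-Tq was -2.23 ± 1.01 over 6 libraries (edgeR adjusted p = 0.657) and -0.54 ± 0.50 without untreated replicate 2 (edgeR adjusted p = 0.674).

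Over the 6 libraries, 0 of the 9 light-strand genes passed edgeR's test in either direction, where 0.0% of the 24935 IDs tested did. DESeq2 on the same libraries called 2 of the 9 lower, mt-Ta (adjusted p = 0.0102) and mt-Ts1 (adjusted p = 0.0268). For the 5 genes mt-Nd6, mt-Tn, mt-Tc, mt-Ty and mt-Te it gave no p, adjusted or not, so DESeq2 left these untested. limma-voom called 0. Over all 18483 IDs with a DESeq2 adjusted p, 63 were called lower and 22 higher. In edgeR the unadjusted p was under 0.05 for 8 of the 9 and for 6.26% of all tested IDs. Without untreated replicate 2, 7 of the 9 fell and 0 rose by edgeR's test, where 2.20% of the 25592 IDs tested fell and 1.26% rose. The median log2 fold change of the 9 was -4.00 over 6 libraries and -1.52 without untreated replicate 2, against -0.08 and -0.04 over all tested IDs. The IPA libraries lay below all untreated libraries for 8 of the 9 genes, where 6.22% of the 18867 IDs that averaged 1 CPM or more did so. Without untreated replicate 2 the 8 were still below, and the share of all those IDs was 13.8%. Of the 8, mt-Ty and mt-Tp had Poisson intervals in IPA replicate 1 that overlapped those of untreated replicate 3.

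The heavy-strand mRNAs moved in the same direction, and the rRNAs did not pass the test. Without untreated replicate 2, 12 of 12 heavy-strand mRNAs fell by edgeR's test, with log2 fold changes from -3.17 to -1.47 and a median of -2.17, against a median of -1.44 for the 8 light-strand tRNAs. Of the 14 heavy-strand tRNA genes 13 were tested and 3 fell, with a median of -1.93. Neither of the 2 rRNAs passed, with log2 fold changes of 0.42 for mt-Rnr1 and -0.01 for mt-Rnr2. Over 6 libraries edgeR and limma-voom called 0 of these. DESeq2 called 11 of the 12 heavy-strand mRNAs lower and 0 of the 2 rRNAs. Of the 14 heavy-strand tRNA genes it called 2 lower (mt-Tl1 and mt-Tr), and 8 had no adjusted p. Of those 8, only mt-Tf and mt-Tv had an unadjusted p. Among all 18483 IDs with an adjusted p, DESeq2 called 63 lower. The edgeR medians over 6 libraries were -2.10 for the heavy-strand mRNAs, -3.20 for the heavy-strand tRNAs and -0.94 for the rRNAs.

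**Figure D2:**
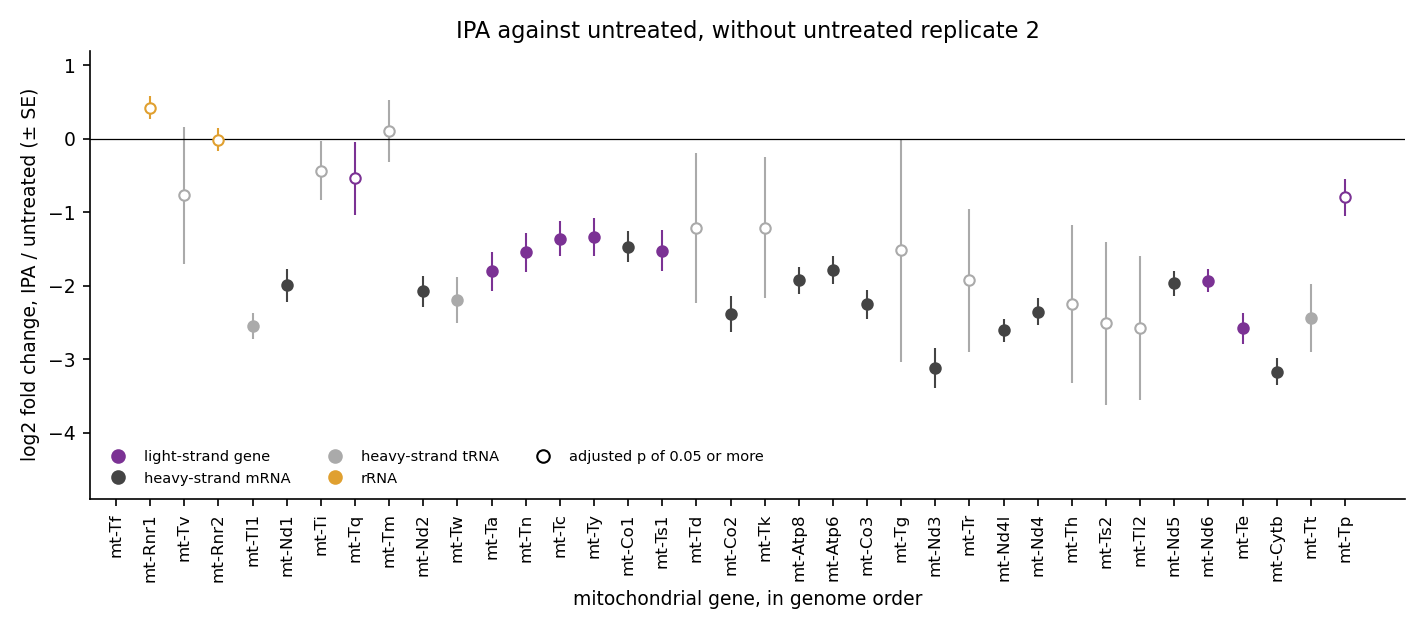
Log2 fold change of IPA over untreated with its SE (edgeR, 5 libraries, untreated replicate 2 left out) for the mitochondrial genes in genome order, coloured by kind, with open circles for an adjusted p of 0.05 or more. mt-Tf was not tested. Of the 9 light-strand genes the 7 from mt-Ta to mt-Te in genome order are filled, from -1.34 to -2.58, and mt-Tq and mt-Tp are open.

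Ratios of counts within a library do not depend on how libraries are scaled to each other and allow each light-strand gene to be set beside its neighbours. The ratio of mt-Nd6 to mt-Nd5 in the IPA libraries lay within the untreated range, and that of mt-Te to mt-Nd6 lay below it. There were 21.3, 92.0 and 32.1 mt-Nd6 counts per 100 mt-Nd5 counts in untreated replicates 1, 2 and 3, and 25.7, 28.1 and 28.1 in IPA replicates 1, 2 and 3. The IPA values lay between those of untreated replicates 1 and 3, and the exact permutation p was 0.7 over 6 libraries and 0.8 without untreated replicate 2. Relative to mt-Cytb on its other side, mt-Nd6 had 7.52, 482 and 12.9 counts per 100 in untreated samples and 21.6, 25.2 and 24.0 with IPA. The IPA values were above untreated replicates 1 and 3 and below untreated replicate 2. The exact permutation p was 1 over 6 libraries and 0.2 without untreated replicate 2. In edgeR without untreated replicate 2, mt-Cytb, which encodes cytochrome b of complex III, fell by 3.17 ± 0.19 on the log2 scale (adjusted p = 3.36e-09), and mt-Nd5, a complex I subunit, fell by 1.97 ± 0.17 (adjusted p = 4.34e-07).

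The ratio of mt-Te to mt-Nd6 was lower in all IPA libraries. Per 100 mt-Nd6 counts there were 13.2, 16.1 and 13.4 mt-Te counts in untreated replicates 1, 2 and 3, and 9.31, 8.81 and 8.17 in IPA replicates 1, 2 and 3. Untreated replicate 2 was here near the other untreated libraries, and the groups did not overlap. The mean was 14.2 ± 1.65 untreated and 8.76 ± 0.573 with IPA (SD, n = 3 each; exact permutation p = 0.1, and 0.4 after adjustment over 20 ratios). With untreated replicate 2 left out, the untreated mean was 13.3 and the exact permutation p was 0.2. The smallest Benjamini-Hochberg adjusted p among those 20 ratios was 0.4.

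mt-Ts1 kept close to mt-Co1, the cytochrome oxidase mRNA gene whose end it overlaps, in 5 of the 6 libraries. Per 100 mt-Co1 counts there were 5.03, 29.5 and 4.16 mt-Ts1 counts in untreated samples and 4.86, 4.38 and 4.16 with IPA. Apart from untreated replicate 2 the libraries of both groups covered the same narrow range, and the exact permutation p was 0.5 over 6 libraries and 1 without untreated replicate 2. Without that library, mt-Co1 fell by 1.47 ± 0.21 on the log2 scale (edgeR adjusted p = 0.000511), beside 1.52 for mt-Ts1.

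Within the tRNA block, mt-Ty was higher relative to mt-Ta in all IPA libraries. Per 100 mt-Ta counts there were 92.4, 112 and 94.997 mt-Ty counts in untreated replicates 1, 2 and 3, and 126, 134 and 122 in IPA replicates 1, 2 and 3. The groups did not overlap (exact permutation p = 0.1, adjusted 0.4, and p = 0.2 without untreated replicate 2). The IPA replicate 1 ratio rests on 78 mt-Ty and 62 mt-Ta counts, and its counting error was not computed. For mt-Tc the values per 100 mt-Ta counts were 105, 158 and 124 untreated and 150, 147 and 155 with IPA. These overlapped only through untreated replicate 2, which was the highest (exact permutation p = 0.4, and 0.2 without that library).

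mt-Tp and mt-Tq had higher ratios to mt-Nd6 in the IPA libraries. Per 100 mt-Nd6 counts there were 6.82, 0.537 and 2.69 mt-Tp counts in untreated samples and 8.09, 9.66 and 11.9 with IPA. For mt-Tq the values were 0.257, 0.140 and 0.486 untreated and 0.490, 1.43 and 0.944 with IPA. In both cases the IPA libraries were above all untreated ones, with an exact permutation p of 0.1 each (adjusted 0.4), and of 0.2 each without untreated replicate 2. For mt-Tq the margin between untreated replicate 3 and IPA replicate 1 rests on 2 counts in the latter. The lowest IPA value for mt-Tp, in replicate 1, rests on 33 mt-Tp and 408 mt-Nd6 counts. Counting error of these ratios was not computed.

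**Figure D3:**
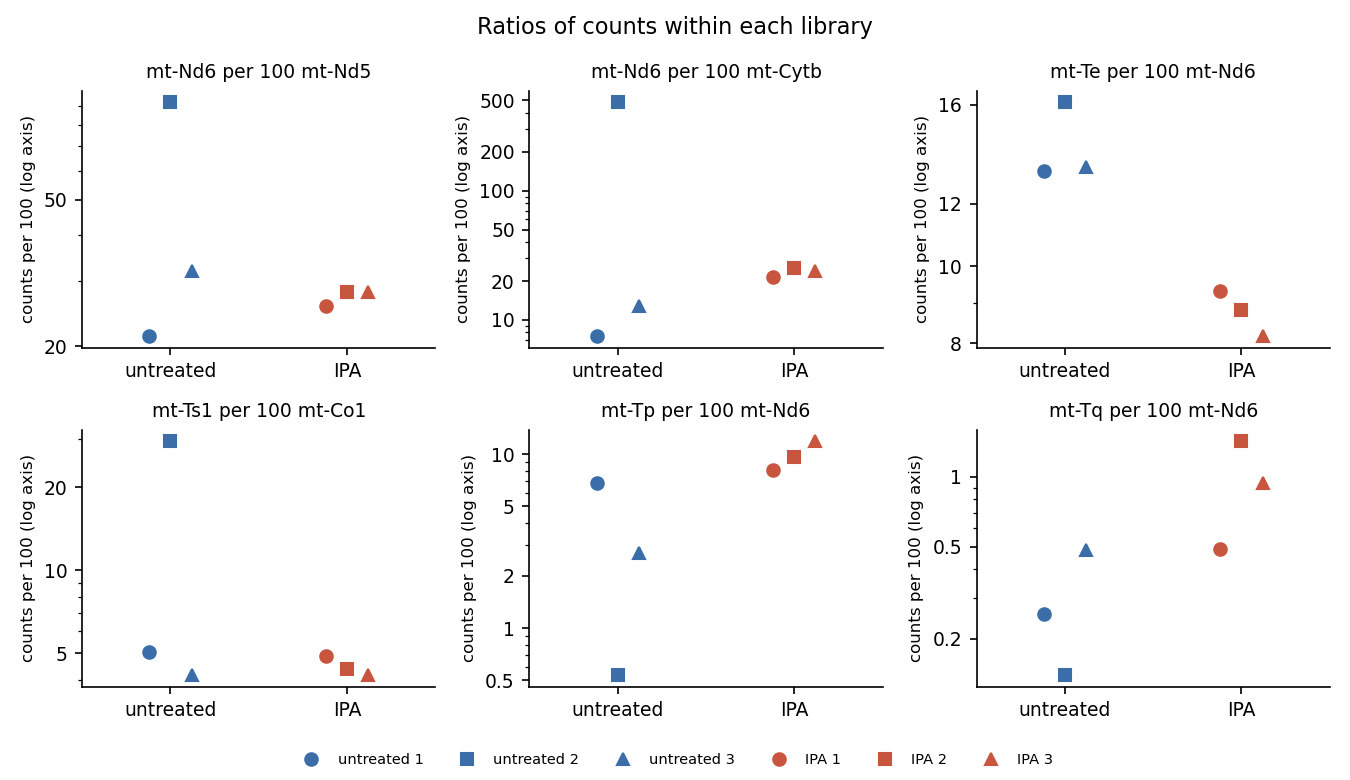
Counts of 1 gene per 100 counts of another within each library, on log axes that differ between panels, 1 point per library. mt-Ts1 per mt-Co1 lies between 4.16 and 5.03 in all libraries but untreated replicate 2, at 29.5, while mt-Te per mt-Nd6 separates the groups with untreated replicate 2 among the untreated libraries.

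The share of the light-strand genes among mitochondrial counts lay between 2.68 and 3.18% in 5 libraries and was higher in untreated replicate 2. The 9 genes held 2.76, 18.7 and 2.68% of mitochondrial counts in untreated replicates 1, 2 and 3, and 3.18, 3.01 and 2.89% in IPA replicates 1, 2 and 3. With IPA the share was slightly above untreated replicates 1 and 3 and far below untreated replicate 2. The difference of the group means was -5.03 percentage points over 6 libraries (exact permutation p = 1) and turned to 0.306 percentage points without untreated replicate 2 (exact permutation p = 0.2). Leaving out mt-Ts1, the share of the other 8 genes was 0.698, 10.7 and 1.03% untreated and 0.832, 0.854 and 0.817% with IPA, and the IPA values lay between those of untreated replicates 1 and 3. mt-Nd6 alone held 0.406, 8.86 and 0.734% of mitochondrial mRNA counts in untreated samples and 0.470, 0.557 and 0.516% with IPA (exact permutation p = 0.4, and 0.8 without untreated replicate 2).

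Untreated replicate 2 had a higher CPM over the light-strand genes than the other untreated libraries, which is a description of 1 library with no test. Its CPM relative to the mean of untreated replicates 1 and 3 was 18.8 times for mt-Te, 15.5 times for mt-Nd6, 13.5 times for mt-Tc, 11.5 times each for mt-Tn and mt-Ty and 9.59 times for mt-Ta. It was 5.59 times for mt-Tq, 4.76 times for mt-Ts1 and 1.86 times for mt-Tp. So 8 of the 9 were more than 2-fold higher, where 15.1% of the IDs that averaged 1 CPM or more were. More than 2-fold higher, too, were 11 of the 14 heavy-strand tRNA genes, 2 of the 2 rRNAs and 3 of the 12 heavy-strand mRNAs. The 11 include mt-Tv, which averaged less than 1 CPM and so is not in the 15.1%. The median ratio was 11.5 for the light-strand genes, 7.03 for the 14 heavy-strand tRNA genes and 0.518 for the 12 heavy-strand mRNAs, of which 6 were under 0.5. Over the 18867 IDs that averaged 1 CPM or more the median ratio was 0.666, and 7158 were under 0.5. The highest heavy-strand mRNA was mt-Nd5, which adjoins mt-Nd6, at 4.42 times. The lowest was mt-Nd4l at 0.224 times, while mt-Rnr1 and mt-Rnr2 were at 3.75 and 3.24 times.

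**Figure D4:**
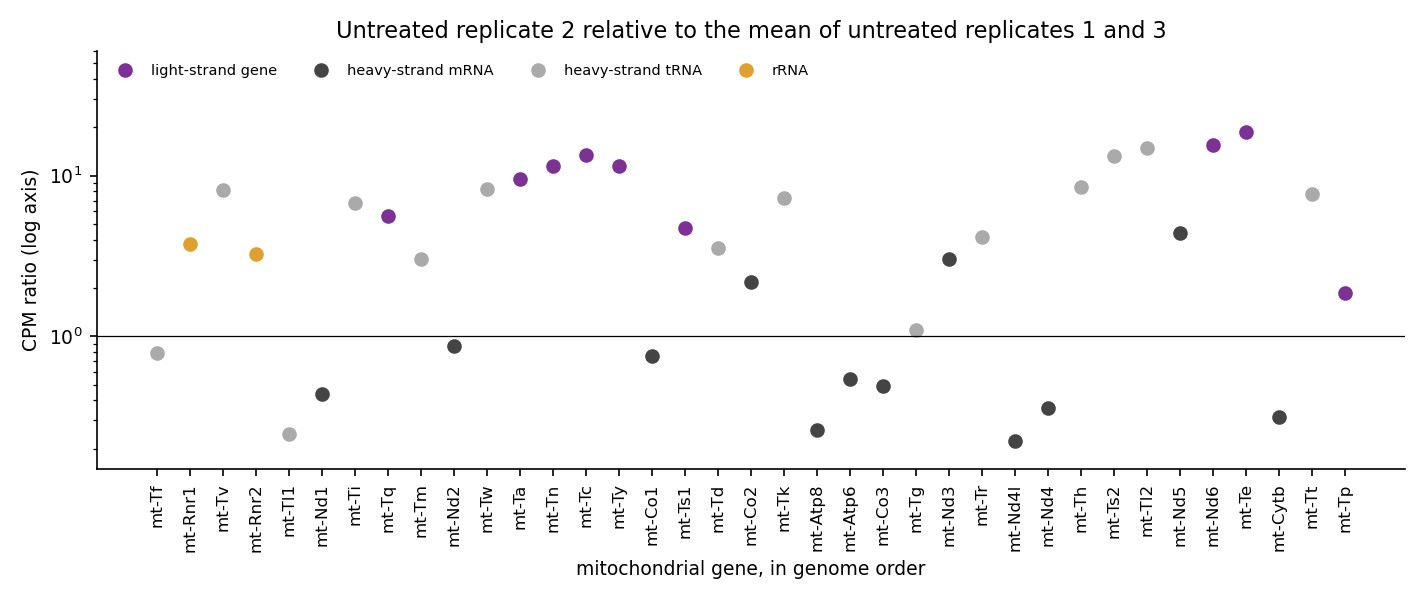
CPM in untreated replicate 2 divided by the mean of untreated replicates 1 and 3, on a log axis, for the 37 mitochondrial genes in genome order, coloured by kind. The light-strand genes lie between 1.86 and 18.8, the heavy-strand tRNA genes between 0.248 and 14.9, and the heavy-strand mRNAs between 0.224 and 4.42.

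IPA replicate 2 stood above the other IPA libraries in several heavy-strand tRNA genes, while for 7 of the 9 light-strand genes it lay between them. The summed level of the 14 heavy-strand tRNA genes was 55.7, 101 and 26.4 CPM in IPA replicates 1, 2 and 3, while that of the 7 light-strand tRNA genes other than mt-Ts1 was 113, 71.7 and 62.3 CPM. Relative to the mean of IPA replicates 1 and 3, IPA replicate 2 was more than 2-fold higher for 8 of the 14 heavy-strand tRNA genes. The highest ratio was 17.8 for mt-Tg (10.2 CPM against 0.586 and 0.561). Of the IDs that averaged 1 CPM or more, 1.89% were more than 2-fold higher. Among the 14, mt-Tf and mt-Tv averaged less than 1 CPM and so are not in that share. mt-Tf is among the 8, with 2 counts in IPA replicate 2 against 0 and 1 in IPA replicates 1 and 3. For the 9 light-strand genes the ratio ran from 0.720 to 2.15, with a median of 0.858, and only mt-Tq was over 2-fold. This describes 1 library and was not tested.

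Levels can be compared between genes only per length. Per kilobase of gene, the median CPM over 6 libraries was 11665 for mt-Ts1, 472 for mt-Tc, 412 for mt-Nd6, 388 for mt-Tn, 375 for mt-Te, 372 for mt-Ty, 337 for mt-Ta, 155 for mt-Tp and 15.9 for mt-Tq. mt-Ts1 was the highest of the 9 and mt-Tq the lowest in every library. The 6 genes from mt-Tc to mt-Ta in this order did not keep their order across libraries. In untreated replicate 1 they ranged from 588 for mt-Te to 720 for mt-Tc, while in untreated replicate 3 they ran from 402 for mt-Ty to 784 for mt-Te. In IPA replicate 3 they ran from 97.8 for mt-Te to 210 for mt-Tc. mt-Te was thus the highest of these 6 in untreated replicates 2 and 3 and the lowest of them in each IPA library and in untreated replicate 1. The tRNA genes here are 66 to 71 bases long, and how a read that covers one in part was counted is not given in the sources used here, so these per-length levels depend on that choice. The heavy-strand mRNA gene mt-Co1, whose end mt-Ts1 overlaps, had a median of 11138 CPM per kilobase. With the strand setting not given, light-strand and heavy-strand reads over mt-Ts1 cannot be told apart.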

How the data were processed

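RNA of 6 4T1 samples was sequenced, and the authors deposited unnormalized read counts, 1 row per Ensembl ID and 1 column per sample, per the file headers and values. Per the submitters' processing notes the genome builds were GRCm38 and mm10. Which library type, aligner, counting tool and strand setting were used is not given in the sources used here. Columns of treated samples were matched to titles by letter and number. No table at hand pairs the IDs with symbols (0 RefSeq genes carry an Ensembl ID), so names of mitochondrial genes were set by hand from their IDs, the other 28 of the 37 from general knowledge of Ensembl, and the cell line was not checked against markers. Coordinates and lengths are those of RefSeq on GRCm38.p6, matched by symbol for all 37.

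Counts were tested on the whole table with edgeR 4.0.16 in R 4.3.3 (TMM, filterByExpr, robust quasi-likelihood F-test, Benjamini-Hochberg, called at an adjusted p under 0.05). The SE is the log2 fold change divided by the square root of F. CPM uses library totals without TMM factors. The log2 CPM behind all correlations instead uses TMM-scaled totals after filtering, with a prior count of 2. Shares and ratios were compared by two-sided exact permutation tests over samples (scipy 1.17.1). The 3-count floor ran from 0.0509 CPM for untreated replicate 2 to 0.880 CPM for IPA replicate 1; floors and intervals cover counting error only. All pairs of replicates differed by more than sampling noise (chi-square per degree of freedom of at least 7.11). The rule for named genes took all 9 genes, the genes beside them and the 3 IDs most like mt-Nd6. None of those 3 IDs has a symbol here, and only 2 of them are printed. Other mitochondrial genes (mt-Tf, mt-Tv, mt-Tg, mt-Nd4l, mt-Tl1, mt-Tr and the rRNAs) are named after their values were seen. The genes, lists and tests were chosen with earlier results of these data known, and the 20 ratios after the counts had been seen. On simulated counts, edgeR recovered 0 of 100 changes of 2-fold and 5 of 100 of 4-fold for all 6 libraries (24078 IDs). Without untreated replicate 2 (24829 IDs) it recovered 77 and 100 of 100. False calls were 2 for all 6 libraries and 15 without untreated replicate 2. Changes were set on IDs of at least 5 CPM. Apart from them, each ID had the same mean and dispersion in every library, so no simulated library stood apart as untreated replicate 2 does. Alternatives were DESeq2 1.42.0, limma-voom (limma 3.58.1), other scalings and filters, a replicate block, and samples left out.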

Additional observations from a re-analysis of the deposited data

How the results depend on the processing

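The count of light-strand genes lower with IPA was 0 over all 6 libraries with each scaling, filter and limma-voom. It was 2 with DESeq2 (mt-Ta, adjusted p = 0.0102, and mt-Ts1, 0.0268), which gave no p, adjusted or not, for 5 of the 9. Leaving out 1 sample gave 0 to 7, the 7 coming from leaving out untreated replicate 2. Without that library the count was 7 with library totals, with TMM without mitochondrial genes, with DESeq2 and with limma-voom. It was also 7 with IPA replicate 1 left out too. Among all IDs these fits called lower 327 of 25592, 446 of 25592, 660 of 17092, 1009 of 25592 and 763 of 24979, in that order. DESeq2 over all 6 libraries called 63 of 18483 lower. None was higher in any alternative. All 9 had a log2 fold change below 0 in all 20 alternatives: mt-Nd6 ran from -5.31 to -1.82, mt-Te from -6.19 to -2.48, mt-Tp from -1.70 to -0.58 and mt-Tq from -2.69 to -0.42, and mt-Tp and mt-Tq passed in 0. With library totals the median over all tested IDs moved from -0.08 to 0.13, and mt-Nd6 from -4.84 to -4.35.

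The difference in the light-strand share of mitochondrial counts ran from -7.71 to 0.306 percentage points with 1 sample left out, turning sign only without untreated replicate 2, and was 0.227 with IPA replicate 1 left out too. That of mt-Nd6 among mitochondrial mRNA counts ran from -4.29 to -0.0562. With the replicate block 0 of the 9 were called. Correlations of the deviations, by shared number, were -0.0771, 0.0183 and 0.161, and 3 of 6 samples correlated best with their own number, so the numbers were not taken to pair the samples. Depth limits mt-Tq most, with 2 counts in IPA replicate 1.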

Other observations

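mt-Te was the mitochondrial gene whose pattern was most like that of mt-Nd6. Over the 6 libraries its log2 CPM had a Pearson correlation of 0.998 with mt-Nd6, the 6th highest among 13115 IDs that averaged 5 CPM or more, and 0.9996 without untreated replicate 2. The 3 IDs with the highest values, led by ENSMUSG00000001131 and ENSMUSG00000029385, were not paired with a name by the tables used here, and ran from 0.9996 to 0.9998. In the 6-library values 1 library, untreated replicate 2, lies far from the others. In the value without it, both genes were lower in all IPA libraries, and ENSMUSG00000001131 then reached 0.9987. All these values describe the pattern and are no test.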
